A study of Mus musculus with 43 samples.

Results

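Gbp2, Gbp3 and Gbp5 are guanylate-binding protein genes of the mouse, and they were followed by the probe sets that the array platform annotates to their symbols. These 3 genes are 3 of 19754 rows tested, which are 19752 genes with a symbol of their own and 2 probe sets that list several Gbp genes. Gbp3 and Gbp5 had 1 probe set each. The 1 probe set annotated to Gbp2 is also annotated to its neighbour Gbp2b, so it is called Gbp2/Gbp2b here and the signals of these genes cannot be told apart on it.

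Guanylate-binding proteins are large GTPases related to dynamins, and many of them are made at high levels only after a cell has received an interferon. They gather on the membranes of vacuoles that hold bacteria or parasites and on bacteria in the cytosol, where they help to break the vacuole or the bacterial surface and to start inflammasome signalling through caspase-11, the product of Casp4. The family is best known from macrophages treated with interferon gamma. Gbp2 and Gbp5 end in a signal for a lipid anchor, and Gbp5 has been linked to assembly of the NLRP3 inflammasome.

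The samples were sorted immune cells of male C57BL/6 mice, aged 6 weeks. In the interferon group, mice had received 10000 U of interferon alpha under the skin 2 h before collection. The baseline group came from mice with no injection on their labels, so the effect of the injection itself cannot be told apart from that of interferon. Each group held 9 cell types: neutrophils (Ly6G+), macrophages, dendritic cells (CD11c+ Flt3+), NK cells (NK1.1+ TCRb-), NKT cells (NK1.1+ TCRb+), gamma delta T cells, regulatory T cells (CD25+ CD4+), and CD4+ and CD8+ T cells. All were taken from the spleen except the macrophages, which were peritoneal. There were 17 interferon arrays, 2 for each cell type and 1 for macrophages, and 26 baseline arrays, 3 for each cell type and 2 for neutrophils. Whether the arrays of a group stand for different mice is not labelled, and the p-values therefore rest on a spread between arrays that may be technical. In sorted bulk samples, fewer cells of a type and less RNA per cell cannot be told apart.

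Expression was measured on Mouse Gene 1.0 ST arrays, and the deposited intensities, after robust multi-array averaging, ran from 4.69 to 22042 with array medians of 104.7 to 125.1. Values below are log2 of these intensities, and they compare 1 probe set between samples, not probe sets with each other. Of the 43 arrays, 41 correlated best with an array of their own cell type, and no arrays were identical. At baseline each cell type was highest for its own marker list, except that the CD4+ T cell list was highest in regulatory T cells, which carry CD4 too (mean log2 level 11.75, against 11.70 in CD4+ T cells). The gamma delta T cell list had 2 measured genes and is no check of that label. B cell markers were highest in gamma delta T cells, with mean log2 levels of 8.39 to 10.45 on the interferon arrays, against 8.11 to 10.49 at baseline, and 0 of 5 were called there. NK cell markers in gamma delta T cells were at 8.50 to 8.52 on the interferon arrays, against 7.97 to 10.03 at baseline. Of these 5 genes 1 was called higher and 1 lower there. The part of either list in the gamma delta T cell results was not tested. For CD8+ T cells, the source label of baseline replicates 1 and 2 names blood where the title names spleen, and for macrophages the preparation text of baseline replicates 1 and 2 names spleen. Baseline replicates 1 and 2 share a preparation wording that no interferon array has, so in neutrophils, which have no other baseline array, preparation and interferon cannot be told apart, nor in CD4+ T, NK and NKT cells, whose interferon arrays have a wording of their own.

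On chromosome 3 the genes lie side by side in the order Gbp5, Gbp7, Gbp3, Gbp2b, Gbp2. Their promoters are shown because the 3 probe sets moved together after interferon, and 2 kinds of interferon response motif can be looked for in the letters. The interferon-stimulated response element was searched on both strands as GAAA, any 2 bases, GAAA, which reads TTTC, any 2 bases, TTTC on the other strand. The gamma-activated sequence was searched as TTC, any 3 bases, GAA, which reads the same on both strands. Each window runs from 250 bases before to 50 bases after an annotated RefSeq start in GRCm38.p6, on the plus strand of chromosome 3, and capitals mark the matches.
Gbp5, chr3:142496684-142496983: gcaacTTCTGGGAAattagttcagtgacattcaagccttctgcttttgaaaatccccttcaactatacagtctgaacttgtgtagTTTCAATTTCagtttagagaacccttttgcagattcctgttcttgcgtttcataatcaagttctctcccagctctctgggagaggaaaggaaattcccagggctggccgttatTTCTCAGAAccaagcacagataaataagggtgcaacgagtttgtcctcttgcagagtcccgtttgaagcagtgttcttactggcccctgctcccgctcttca
Gbp3, chr3:142559794-142560093: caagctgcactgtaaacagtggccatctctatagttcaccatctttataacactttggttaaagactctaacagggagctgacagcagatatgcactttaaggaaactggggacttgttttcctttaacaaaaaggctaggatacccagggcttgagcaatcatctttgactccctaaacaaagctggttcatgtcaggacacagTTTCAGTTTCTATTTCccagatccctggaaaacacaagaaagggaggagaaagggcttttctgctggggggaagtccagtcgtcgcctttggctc
Gbp2, chr3:142620413-142620712: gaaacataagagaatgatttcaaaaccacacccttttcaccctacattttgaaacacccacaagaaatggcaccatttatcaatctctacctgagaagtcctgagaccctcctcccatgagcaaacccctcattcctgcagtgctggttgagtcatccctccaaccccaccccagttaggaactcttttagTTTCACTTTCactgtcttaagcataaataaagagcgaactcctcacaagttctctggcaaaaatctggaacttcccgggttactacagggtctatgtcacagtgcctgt
The Gbp5 window held the response element TTTCAATTTC at -165 to -156 from the start and the activated sequences TTCTGGGAA at -245 to -237 and TTCTCAGAA at -52 to -44. The Gbp3 window held 2 overlapping response elements, TTTCAGTTTC at -45 to -36 and TTTCTATTTC at -39 to -30, counted from the transcript start that its window is set on, which lies downstream of the outermost annotated start of the gene. The window of another annotated start of Gbp3 had no match. In Gbp2 the response element TTTCACTTTC stood at -59 to -50. The window of Gbp2b, not printed, held the same letters at -137 to -128 from the start that it is set on. The window of Gbp7, not printed either, held the response element TTTCAGTTTC at -53 to -44. It also held the activated sequences TTCCAGGAA at -106 to -98 and TTCTCAGAA at -87 to -79, so such matches were not particular to the 3 genes. Of 32851 mouse promoter windows of this length, 3.44% held the response element, 8.3% the activated sequence and 0.454% both. A match describes the letters and not a bound site.

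All 3 probe sets rose after interferon in all 9 cell types. A row was called where the Benjamini-Hochberg adjusted p of limma's test was under 0.05 over all rows and its log2 change reached 1. The share of all rows called higher was 2.44% in neutrophils, 1.36% in macrophages, 2.35% in dendritic cells, 1.26% in NK, 2.9% in NKT, 1.54% in gamma delta T, 1.12% in regulatory T, 1.01% in CD8+ T and 0.911% in CD4+ T cells. In each cell type, every interferon array lay above every baseline array for every one of the 3. Averaged over the 9 cell types with equal weight, Gbp5 rose by 3.16 on the log2 scale (SE 0.0925), which is 8.94-fold, and ranked 16 among all mean changes. Gbp2/Gbp2b rose 6.25-fold on average (log2 2.64, SE 0.118) and Gbp3 rose 5.54-fold (log2 2.47, SE 0.0763). The limma adjusted p-values of these means were 2.4e-24 for Gbp5, 4.39e-19 for Gbp2/Gbp2b and 1.09e-23 for Gbp3, with 1.27% of all rows called higher.

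**Figure D1:**
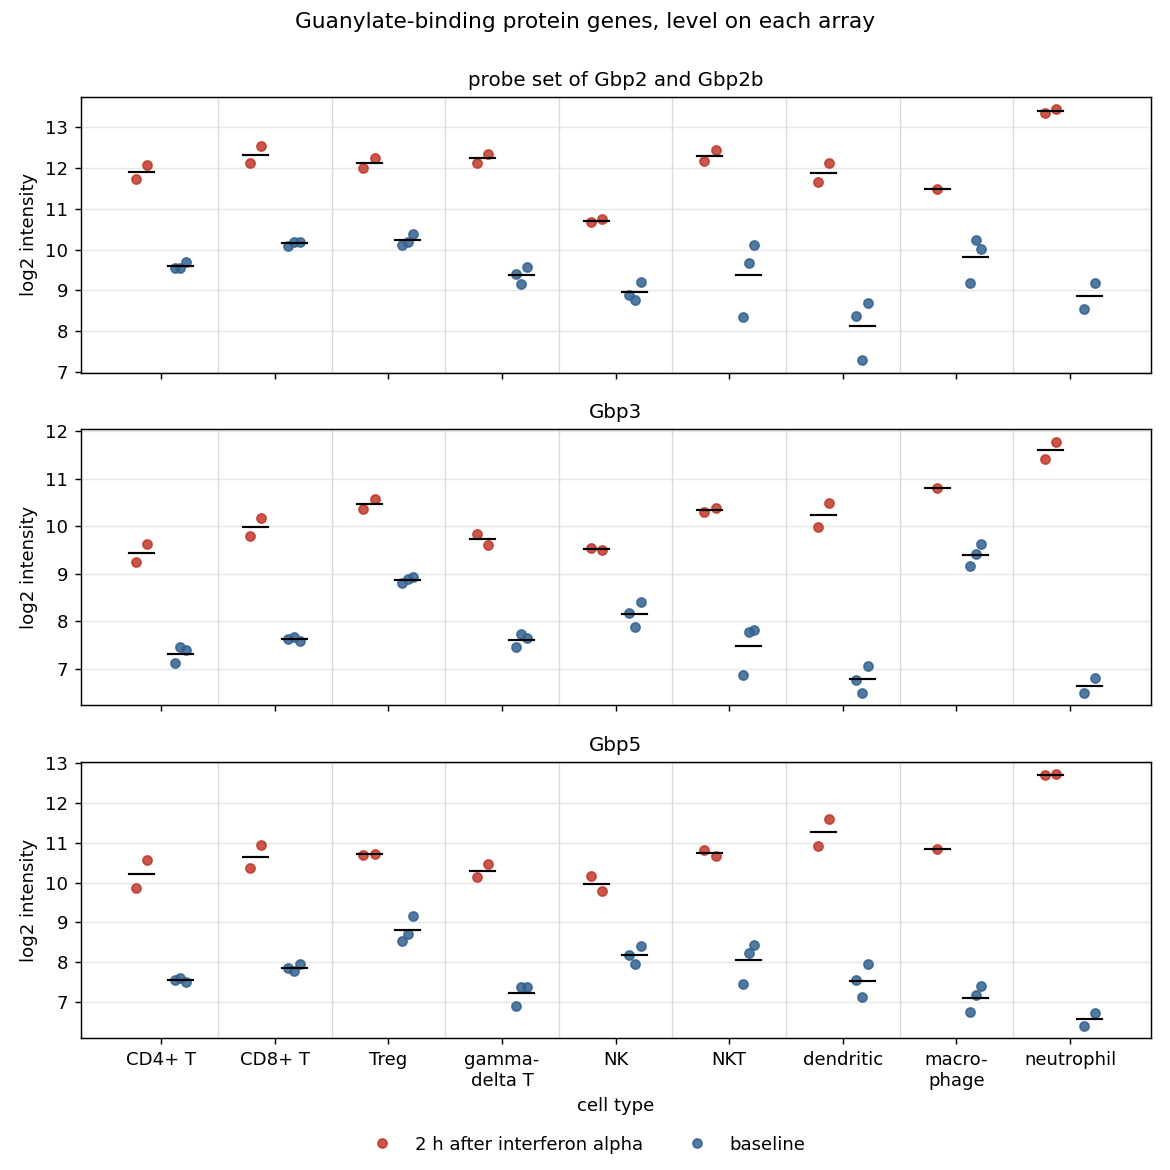
Log2 intensity of the Gbp2/Gbp2b, Gbp3 and Gbp5 probe sets on each array (points), by cell type, with the interferon arrays left of the baseline arrays and short lines at the group means. In every panel and cell type the interferon points lie above the baseline points, and the neutrophil interferon arrays are the highest of each panel.

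Gbp5, which had the largest average fold of the 3, had its widest change in neutrophils, short-lived phagocytes that are the first to reach infected tissue. Its log2 level was 12.70 and 12.71 on the interferon arrays of neutrophils, against 6.42 and 6.73 at baseline. The baseline arrays were the 2 lowest of the series for this probe set and the interferon arrays the 2 highest. The change was 6.13 (SE 0.291, limma adjusted p = 1.23e-16), a 70.1-fold rise and the widest rise of any row in neutrophils.

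Macrophages and dendritic cells, the phagocytes that take up and present microbes, followed. In macrophages Gbp5 was at 10.83 on the single interferon array, against 6.75, 7.18 and 7.41 at baseline. Dendritic cells had 10.92 and 11.58 after interferon, against 7.55, 7.12 and 7.97 at baseline. No array of either cell type overlapped between the conditions, and both changes came to 3.71 (SE 0.336 in macrophages, 0.266 in dendritic cells).

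In CD4+, CD8+ and regulatory T cells, Gbp5 changed by 1.91 to 2.78. CD4+ T cells, the helper cells, had 9.85 and 10.58 after interferon, against 7.57, 7.62 and 7.51 at baseline. CD8+ T cells, the cytotoxic cells, had 10.36 and 10.93, against 7.86, 7.79 and 7.96 at baseline. Regulatory T cells, which restrain other T cells, had 10.70 and 10.72, against 8.54, 8.71 and 9.17 at baseline. The baseline arrays were tight in CD4+ and CD8+ T cells and highest in regulatory T cells, whose change was 1.91, next to 2.65 in CD4+ and 2.78 in CD8+ T cells (SE 0.266 each). The difference was 0.74 for CD4+ minus regulatory T cells (95% interval -0.02 to 1.51). For CD8+ minus regulatory T cells it was 0.87 (0.10 to 1.63). Neither passed, each with an adjusted p of 1. In both comparisons 0 of 19754 rows passed, so not passing does not set Gbp5 apart.

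The remaining lymphocytes had Gbp5 changes between 1.78 and 3.08. Gamma delta T cells had 10.13 and 10.46 after interferon, against 6.90, 7.39 and 7.37 at baseline. NKT cells had 10.82 and 10.67, against 7.47, 8.24 and 8.44 at baseline, with replicate 1 the low one. NK cells, which kill infected cells without a T cell receptor, had 10.15 and 9.78, against 8.19, 7.95 and 8.42 at baseline. NK cells thus had the lowest mean level after interferon and a change of 1.78, against 3.08 in gamma delta T cells and 2.70 in NKT cells (SE 0.266 each).

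Gbp3, a less studied neighbour of Gbp5, also changed most in neutrophils. It was at 11.42 and 11.77 on their interferon arrays, against 6.49 and 6.80 at baseline. That is a change of 4.95 (SE 0.24, limma adjusted p = 1.41e-16), or 30.9-fold, with the highest mean level of the 9 cell types after interferon and the lowest at baseline. Dendritic cells had 9.99 and 10.50, against 6.77, 6.49 and 7.06 at baseline, a change of 3.46 (SE 0.219). In macrophages Gbp3 was at 10.81 on the single interferon array, against 9.17, 9.41 and 9.62 at baseline. These were the highest of all baseline arrays, and the change was 1.41 (SE 0.278, limma adjusted p = 0.00149).

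In the same T cells, Gbp3 changed by 2.12 in CD4+, 2.35 in CD8+ and 1.59 in regulatory T cells (SE 0.219 each). CD4+ T cells had 9.25 and 9.63 after interferon, against 7.12, 7.45 and 7.40 at baseline. CD8+ T cells had 9.79 and 10.16, against 7.63, 7.66 and 7.59 at baseline. Regulatory T cells had 10.36 and 10.57, against 8.80, 8.89 and 8.93 at baseline, so their arrays lay above those of CD4+ and CD8+ T cells in both conditions.

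Gamma delta T cells had Gbp3 levels of 9.84 and 9.61 after interferon, against 7.46, 7.73 and 7.65 at baseline. NKT cells had 10.31 and 10.39, against 6.86, 7.77 and 7.82 at baseline. NK cells had 9.54 and 9.50, against 8.18, 7.89 and 8.41 at baseline. The NK cell change of 1.36 was the smallest of the 9 for Gbp3, next to 2.86 in NKT cells, whose baseline replicate 1 was again low.

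The Gbp2/Gbp2b probe set covers Gbp2, which coats pathogen vacuoles, and Gbp2b, known earlier as Gbp1. In neutrophils it was at 13.34 and 13.43 after interferon, against 8.56 and 9.19 at baseline, a change of 4.51 (SE 0.372, limma adjusted p = 5.04e-11), or 22.9-fold. Dendritic cells had 11.65 and 12.11, against 8.38, 7.29 and 8.69 at baseline, a change of 3.75 (SE 0.339). The baseline arrays of dendritic cells were spread out, with replicate 2 the lowest of the series for this probe set. NKT cells had 12.17 and 12.43, against 8.34, 9.68 and 10.11 at baseline, and gamma delta T cells had 12.11 and 12.34, against 9.41, 9.16 and 9.57. These changed by 2.92 in NKT cells and by 2.85 in gamma delta T cells (SE 0.339 each).

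CD4+ T cells had Gbp2/Gbp2b levels of 11.72 and 12.07 after interferon, against 9.56, 9.54 and 9.69 at baseline. CD8+ T cells had 12.12 and 12.53, against 10.08, 10.18 and 10.19. Regulatory T cells had 11.98 and 12.24, against 10.11, 10.19 and 10.38. The change was 2.30 in CD4+, 2.17 in CD8+ and 1.89 in regulatory T cells (SE 0.339 each), with no overlap between the conditions. NK cells had 10.66 and 10.74, against 8.89, 8.78 and 9.22 at baseline, the lowest levels of the 9 cell types after interferon and a change of 1.74.

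Macrophages gave the smallest Gbp2/Gbp2b change. Their level was 11.47 on the single interferon array, against 9.19, 10.23 and 10.02 at baseline, a change of 1.66 (SE 0.429, limma adjusted p = 0.0273). Without baseline replicate 1 the change was 1.35 with an adjusted p of 0.109, so this call rests on that array. Without the 4 arrays of doubtful tissue label it was 1.45 (adjusted p = 0.267) and for Gbp3 it was 1.19 (adjusted p = 0.115). The separate Gbp2b probe set was at 10.24 in macrophages after interferon, against 9.88 at baseline, while in the other 8 cell types its mean baseline levels were all under 7.

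**Figure D2:**
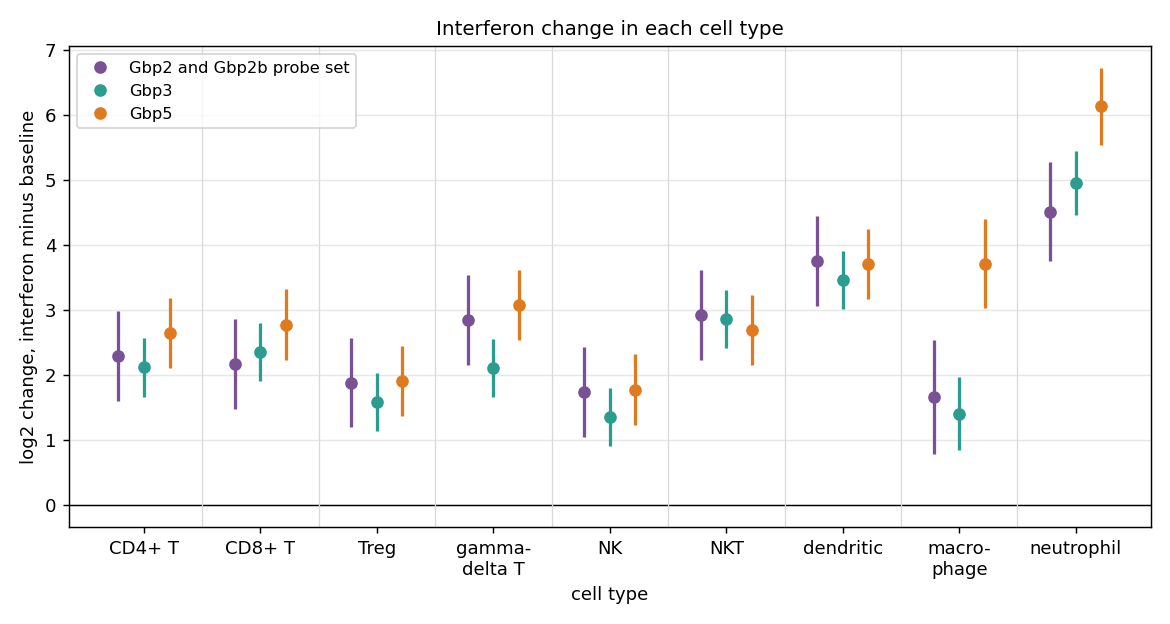
Change of each probe set after interferon (log2, interferon minus baseline) in the 9 cell types, with vertical lines for the 95% confidence interval of the joint fit. Filled points passed the call and open points did not; every change is above 1 and neutrophils are highest for each probe set, at 4.51, 4.95 and 6.13.

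The changes were not of one size across the cell types in the joint fit. An F test of any difference between the 9 changes gave F = 24.0 for Gbp3 (limma adjusted p = 1.85e-08, rank 13 of all rows), 21.0 for Gbp5 (7.43e-08, rank 19) and 7.17 for Gbp2/Gbp2b (0.00145, rank 246), and 4.17% of all rows passed. Without neutrophils the Gbp2/Gbp2b test gave 4.12 with an adjusted p of 0.0951, so there the call rests on neutrophils. With baseline replicate 3 alone, which also leaves out neutrophils, F was 7.11 for Gbp3, 4.69 for Gbp5 and 5.29 for Gbp2/Gbp2b, and none passed.

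Each cell type was then set against the mean of the other 8. In neutrophils the change exceeded that mean for all 3 probe sets, where 1.05% of all rows did. For Gbp5 the excess was 3.34 (SE 0.307, limma adjusted p = 3.77e-09), for Gbp3 it was 2.79 (SE 0.253, 3.75e-09) and for Gbp2/Gbp2b it was 2.10 (SE 0.392, 0.000709). Of the 250 rows called higher on average over the cell types, 44 (17.6%) were also called for a larger change in neutrophils and 30 (12.0%) for a smaller one. The neutrophil arrays also differed in B cell markers, of which 5 of 5 were lower after interferon, with a mean log2 level of 6.36 and 6.29 on the interferon arrays, against 9.31 and 8.49 at baseline. Neutrophil markers stood at a mean of 12.83 and 12.84, against 13.04 and 13.21 at baseline, and 0 of 6 were called. The part of the B cell marker difference in the Gbp changes was not tested.

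In dendritic cells, 28 of the 250 rows called higher on average (11.2%) had a larger change called, and 9 (3.6%) a smaller one. The change of Gbp3 there was above that of the other 8 by 1.12 (SE 0.234, limma adjusted p = 0.00395, with 0.896% of all rows called higher). It came to 0.87 (adjusted p = 0.265) without interferon replicate 2, to 0.98 (0.0382) without baseline replicate 2 and to 0.99 (0.013) without the macrophage interferon array, and to 0.996 (0.00237) with quantile normalization, each under the fold limit. Gbp2/Gbp2b was 1.25 above the others in dendritic cells and did not pass (adjusted p = 0.0655), nor did Gbp5 at 0.62 (0.52). Without neutrophils among the cells compared, both passed, at 1.54 for Gbp2/Gbp2b (0.0158) and 1.05 for Gbp5 (0.0496). For Gbp5 this was the only 1 of 54 alternatives that passed. Of the 5 B cell markers 1 was lower in dendritic cells after interferon, with mean log2 levels of 6.89 to 6.91 on the interferon arrays, against 7.33 to 7.96 at baseline, and the part of this in the Gbp3 change was not tested.

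In NK cells, 2 of the 3 probe sets changed less than the mean of the others. Gbp5 was below the mean of the other 8 by a difference of -1.55 (SE 0.284, limma adjusted p = 0.00664) and Gbp3 by -1.24 (SE 0.234, 0.00711), where 0.132% of all rows were called lower. Gbp2/Gbp2b, at -1.02, did not pass (adjusted p = 0.375). Of the 250 rows called higher on average, 4 (1.6%) had a smaller change called in NK cells, and 4 (1.6%) in regulatory T cells. A larger change was called for 3 (1.2%) in NK cells and for 0 in regulatory T cells. Without NK interferon replicate 2 the adjusted p was 0.245 for Gbp5 and 0.17 for Gbp3, and without interferon replicate 1 it was 0.0964 for Gbp3. Without neutrophils among the cells compared, the NK differences were -1.15 for Gbp5 (0.105) and -0.91 for Gbp3 (0.119), and with baseline replicate 3 alone they were -1.15 (0.378) and -1.02 (0.305). In regulatory T cells Gbp5 changed less than in the others by -1.41 (SE 0.284, limma adjusted p = 0.044, with 0.0304% of all rows called lower), and this call was lost in 27 of 54 other settings. In macrophages, differences of 0.62 for Gbp5, -1.19 for Gbp3 and -1.11 for Gbp2/Gbp2b did not pass (adjusted p = 0.999, 0.0531 and 0.698).

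**Figure D3:**
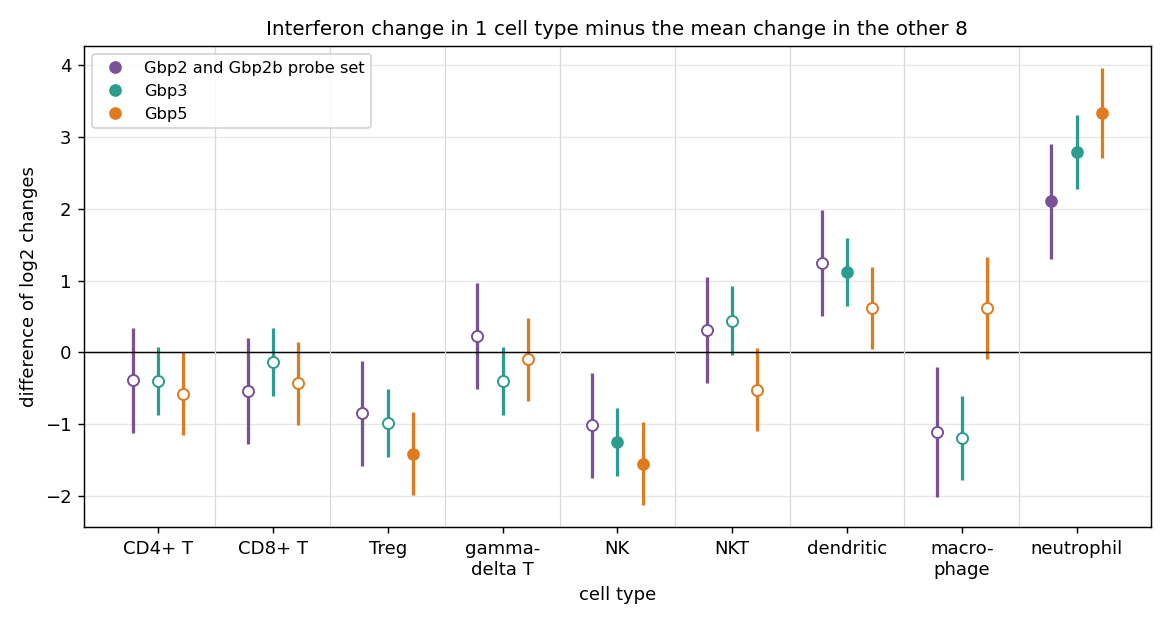
Change in each cell type minus the mean change of the other 8 (log2), for the 3 probe sets, with 95% confidence intervals. Filled points passed the call: neutrophils above 0 for all 3, dendritic cells above 0 for Gbp3, and NK cells for Gbp3 and Gbp5 and regulatory T cells for Gbp5 below 0.

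Levels at baseline already differed between cell types for all 3 probe sets, as 56.4% of all rows did by an F test (limma adjusted p = 1.2e-13 for Gbp3, 1e-07 for Gbp5 and 4.6e-06 for Gbp2/Gbp2b). For Gbp3 the mean level was highest in macrophages (9.40), followed by regulatory T cells (8.87) and NK cells (8.16), and each of these steps passed (adjusted p = 0.0434 for macrophages against regulatory T cells, where 27.5% of all rows passed, and 0.011 for regulatory T cells against NK cells, where 10.8% did). CD8+ T cells (7.63), gamma delta T cells (7.61), NKT cells (7.48) and CD4+ T cells (7.32) came next, and no step among them passed. CD4+ T cells were above dendritic cells (6.78, adjusted p = 0.0427, with 21.8% of all rows passing), and neutrophils (6.65) were last without a step that passed.

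For Gbp5 the baseline order was regulatory T cells (8.81), NK (8.18), NKT (8.05), CD8+ T (7.87), CD4+ T (7.56), dendritic (7.54), gamma delta T cells (7.22), macrophages (7.12) and neutrophils (6.57). No neighbours in it differed by an adjusted p under 0.05. For Gbp2/Gbp2b it was regulatory T cells (10.23), CD8+ T cells (10.15), macrophages (9.81), CD4+ T (9.60), gamma delta T (9.38), NKT (9.38), NK cells (8.96), neutrophils (8.87) and dendritic cells (8.12), again with no step between neighbours that passed. Of the 36 pairs of cell types, 27 differed at baseline for Gbp3, 17 for Gbp5 and 15 for Gbp2/Gbp2b, against a median over pairs of 22.5% of all rows.

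After interferon, neutrophils stood at the top for every one of the 3. Their lead over the next cell type was 1.45 for Gbp5 over dendritic cells (limma adjusted p = 0.000164, where 42.1% of all rows differed), 1.07 for Gbp2/Gbp2b over CD8+ T cells (0.0183, 50.9%) and 0.79 for Gbp3 over macrophages (0.0358, 36.4%). The lowest means were 9.96 in NK cells for Gbp5, 10.70 in NK cells for Gbp2/Gbp2b and 9.44 in CD4+ T cells for Gbp3. The spread over the 9 means, as a range, was 2.16 after interferon and 2.75 at baseline for Gbp3, while for Gbp5 it was 2.74 and 2.23, and for Gbp2/Gbp2b 2.69 and 2.10. In order of the change itself, neutrophils led macrophages by 2.42 for Gbp5 (adjusted p = 0.00229, where 1.1% of all rows differed) and dendritic cells by 1.48 for Gbp3 (0.00636, 2.37%), while the lead of 0.76 over dendritic cells for Gbp2/Gbp2b did not pass (0.586). The change differed in 14 of 36 pairs for Gbp3, 12 for Gbp5 and 7 for Gbp2/Gbp2b, against a median over pairs of 0.432% of all rows. By mean level, neutrophils were thus last at baseline and first after interferon for both Gbp3 and Gbp5. At baseline the step to the next cell type did not pass for either (adjusted p = 0.672 for Gbp3 and 0.122 for Gbp5).

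The other measured Gbp rows were 7 in number: Gbp7 and Gbp2b on chromosome 3, and Gbp4, Gbp8, Gbp9, Gbp11 and a probe set shared by 6 genes on chromosome 5. The probe sets of a cluster of near copies may pick up each other's transcripts. Of these 7 rows, 6 or 7 were called higher in CD4+ T, CD8+ T, regulatory T, gamma delta T, NKT and dendritic cells, macrophages and neutrophils, 5 were in NK cells, and none was called lower in any. Their median change was 1.63 in CD4+ T cells, the lowest, and 2.72 in macrophages, the highest, against medians of all rows between -0.104 and 0.075. Gbp7, whose row lies between Gbp5 and Gbp3 in the genome, rose by 2.88 on average, Gbp4 by 2.34, Gbp9 by 2.30 and Gbp11, a transcribed pseudogene, by 1.97, each in 9 of 9 cell types. Gbp8 was called higher in 8 (mean 1.46), with 0.93 in NK cells, under the fold limit. Gbp2b by its own probe set was called in regulatory T cells (1.50) and neutrophils (1.03) and averaged 0.75.

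None of the 7 other rows had its widest change in neutrophils. Gbp4 changed more in neutrophils than in the other 8 by 1.15 (limma adjusted p = 0.0252), Gbp7 by 1.12 without passing (0.0556), and Gbp11 changed less, by -1.06 (0.0139). In dendritic cells Gbp7 changed more than elsewhere (1.51, adjusted p = 0.00386) and Gbp11 less (-1.03, 0.0133), and in macrophages Gbp4 changed more (1.73, 0.0107).

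**Figure D4:**
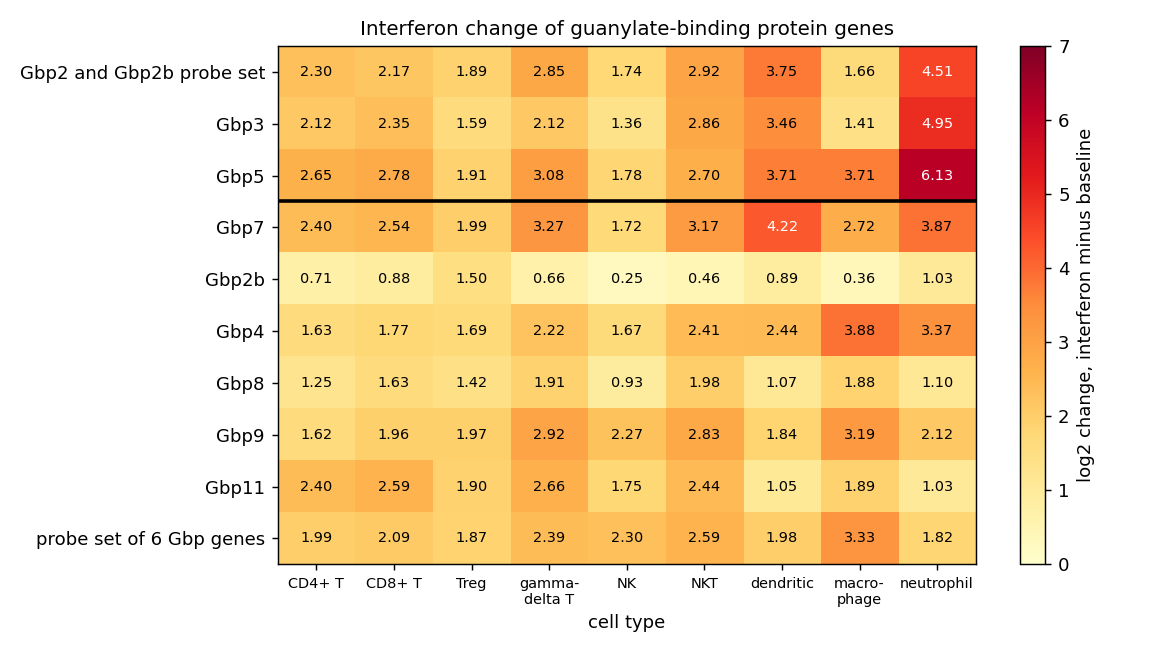
Change after interferon (log2, colour and printed value) of the 3 probe sets, above the line, and of the other measured Gbp rows, below it, in the 9 cell types. Neutrophils hold the widest changes of Gbp2/Gbp2b, Gbp3 and Gbp5, and of none of the 7 other rows.

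Among 18 measured of 20 listed genes for the regulators of Gbp transcription, 5 to 8 were called higher in each cell type. Stat2 and Irf7, which carry the type I interferon signal to promoters, rose on average by 2.46 and 2.55, and Usp18 and Socs1, which damp it, by 3.75 and 1.54, each in 9 cell types. Irf1, which drives Gbp genes after interferon gamma, was called higher in 4 cell types, by 2.38 in macrophages, 1.41 in neutrophils, 1.30 in dendritic cells and 1.12 in CD8+ T cells. Under the fold limit, it also rose in gamma delta T cells (0.98, limma adjusted p = 0.00553), CD4+ T cells (0.93, 0.0207) and NK cells (0.88, 0.0192). Ifng, the gene of interferon gamma, was called higher in 5, all lymphocytes: CD4+ T (1.08), CD8+ T (1.34), gamma delta T (1.68), NK (1.36) and NKT cells (1.58). Interferon receptor chains were called lower in 2 cell types, Ifngr1 in dendritic cells (-1.16), where 0.81% of all rows were called lower, and Ifnar1 (-1.34) and Ifngr2 (-1.49) in neutrophils, where 2.85% were. The median change over the list was between 0.12 in macrophages and 0.73 in NKT cells.

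Genes that work beside guanylate-binding proteins moved only in part. The immunity-related GTPases Irgm1 and Iigp1, the 2 measured of 10 listed, rose in 9 of 9 cell types, but Iigp1, which loads onto parasite vacuoles, rose by 1.10 in neutrophils, which was below the mean of the other 8 cell types by a difference of -2.72 (limma adjusted p = 7.2e-08). Of 10 inflammasome genes, Casp4 was called higher in 8 cell types (mean 2.14), Casp1 in 7 (mean 1.42, and 2.87 in neutrophils) and Il18 in 3 (3.45 in neutrophils, 2.57 in macrophages, 1.47 in NKT cells). Aim2 and Il1b were called higher in NKT cells (1.06 and 1.14), but neither change there passed against the mean of the other 8 (limma adjusted p = 0.247 and 0.23), and Aim2 changed by 1.43 in macrophages without passing (0.0617). Of 7 macrophage markers 1 was higher in NKT cells after interferon, with mean log2 levels of 8.18 to 9.15 on the interferon arrays, against 7.47 to 8.61 at baseline, and their part in these changes was not tested. Ninj1, which ruptures dying cells, was called lower in neutrophils (-1.95), and Nlrp3, Nlrc4, Pycard and Gsdmd were called nowhere. Of 14 genes for vacuole targeting and the autophagy conjugation system, Trim21 (2.10) and Rnf213 (2.19), both ubiquitin ligases, rose in 9 cell types and the other 12 were called in none. The 5 genes for lipid anchoring of proteins were called in none either, with medians between -0.41 and -0.01.

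The rows whose 18 group means followed those of each member most closely, by Pearson's r, were mostly other interferon-raised genes. For Gbp5 they were Ppm1k (0.970), Parp14 (0.958), Herc6 (0.957), Tent4a (0.953) and Ifit2 (0.947). For Gbp3 they were Lgals8 (0.953), Gbp5 (0.911), Tent4a (0.909), Gbp2/Gbp2b (0.908) and Gbp7 (0.901). For Gbp2/Gbp2b they were Gbp7 (0.951), Pcgf5 (0.941), Trim21 (0.929), Gbp5 (0.927) and Daxx (0.925). These points share arrays and the common rise after interferon, so the values are a description. By the root mean square difference over the 9 changes, Gbp3 and Gbp2/Gbp2b were nearest to each other (0.361 on the log2 scale), while Gbp5 was nearest to Tnfsf10 (0.818), Gbp7 (0.865), Slfn9 (0.869), Herc6 (0.901) and Gbp2/Gbp2b (0.909). After each other, Gbp2/Gbp2b was nearest to Gbp7 (0.488) and Mlkl (0.708), and Gbp3 to Pnpt1 (0.711) and Gbp7 (0.766).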

How the data were processed

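Gene expression was measured on 43 Mouse Gene 1.0 ST arrays. The deposited intensities are linear values after robust multi-array averaging with Affymetrix Power Tools, per the submitters' processing notes. For both the tool and the build, versions were not given in the sources used here. Here log2 was taken of the deposited intensities with no further scaling. Of 24922 probe sets, 21425 carry 1 symbol, 1399 several and 2098 none in the platform annotation, which can be old. A gene with several probe sets (921) took the brightest by mean. The number of arrays limits the precision.

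Groups follow the labels. limma 3.58.1 (R 4.3.3) fitted 18 groups (9 cell types, interferon and baseline) jointly over 19754 rows, with eBayes moderation and Benjamini-Hochberg adjustment within each comparison over all rows. Levels and changes of pairs of cell types were called on the adjusted p alone. The fit was tested on simulated data. The members and lists were chosen with earlier results of these data known. Named genes were the members, genes of the lists and, for each member, the 5 rows most like it by either measure, without predicted models.

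Alternatives were a preparation term, a replicate block, baseline replicate 3 alone, quantile normalization, array weights, a variance trend with robust moderation, each cell type fitted alone, a filter on dim rows, the mean of probe sets, and leaving out arrays or neutrophils. Motifs and promoters come from RefSeq, GRCm38.p6.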

Additional observations from a re-analysis of the deposited data

Results flagged for a closer look

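The change after interferon differed from the mean of the other 8 cell types, by the contrast fitted in limma, for 7 combinations of probe set and cell type. In neutrophils the difference was 2.10 for Gbp2/Gbp2b, 2.79 for Gbp3 and 3.34 for Gbp5 on the log2 scale. In dendritic cells it was 1.12 for Gbp3. In NK cells it was -1.24 for Gbp3 and -1.55 for Gbp5, and in regulatory T cells it was -1.41 for Gbp5.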

How the results depend on the processing

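The neutrophil changes and their excess over the other cell types kept their call in every alternative that held neutrophils. None of these could separate preparation from interferon in neutrophils, whose baseline arrays all have a wording that no interferon array has. The preparation term was set by the other cell types. No alternative addressed the B cell marker difference of the neutrophil arrays. The call was lost for Gbp2/Gbp2b in macrophages with a preparation term (1.38, adjusted p = 0.074) and without the 4 arrays of doubtful tissue label (1.45, 0.267), with 1.35 to 1.87 on leaving out 1 array. For Gbp3 in macrophages it was lost with baseline replicate 3 alone (1.19, 0.0759) and without those 4 arrays (1.19, 0.115). The F test of unequal changes no longer passed with baseline replicate 3 alone, which leaves out neutrophils, at 5.29 for Gbp2/Gbp2b, 7.11 for Gbp3 and 4.69 for Gbp5, nor without neutrophils for Gbp2/Gbp2b (4.12). Differences from the other 8 that were not called turned direction with baseline replicate 3 alone, for CD4+ T cells (0.084 for Gbp2/Gbp2b, 0.038 for Gbp3, 0.178 for Gbp5), CD8+ T cells (0.000189, 0.436 and 0.156) and gamma delta T cells (0.0813 for Gbp3, 0.424 for Gbp5). Others turned for Gbp5 in gamma delta T cells with quantile normalization (0.148) and without neutrophils (0.329), and for Gbp3 in CD8+ T cells without neutrophils (0.217). On leaving out 1 array, 3 turned: Gbp2/Gbp2b in NKT cells (-0.206 to 0.679), Gbp3 in CD8+ T cells (-0.322 to 0.0526) and Gbp5 in gamma delta T cells (-0.261 to 0.0734). The cause was not tested. Same-numbered arrays deviated together in some cell types only (7 of 16 pairs correlated above 0.1, between -0.301 and 0.347). In NK cells, NKT cells and neutrophils every such pair was above 0.1. The values of a cell type share arrays, so they cannot settle whether arrays are paired, and the numbers were not taken as pairs. With the replicate block no call of a change was lost, the Gbp2/Gbp2b excess in dendritic cells passed (1.25, adjusted p = 0.0206), and so did the Gbp3 difference in macrophages (-1.09, 0.0303). The dendritic cell excess passed in 9 of 54 alternatives, the Gbp3 difference in 16 of 53, and the Gbp2/Gbp2b difference in macrophages passed with array weights (-1.52, 0.000439). Of the values for changes, F tests and counts of cell types raised, 2115 of 2124 were scored as kept. Of the others, which include the differences from the other 8, 1629 of 1773 were. Changes and differences had to keep direction and call, F tests their call, and counts only had to stay within a set ratio. The count of cell types raised came as low as 7 for Gbp3 and 8 for Gbp2/Gbp2b and Gbp5. In part this was where a setting left out a cell type. Most settings left out 1 array, often of a cell type other than the one tested. The array weights stopped before their convergence tolerance. The macrophage changes rest on 1 interferon array, assumed to vary like the other groups.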
